A study of Mus musculus with 6 samples.

Results

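Retinoic acid is the active form of vitamin A in the testis, and the 9 genes described here make it, break it down or carry it and its precursor. They were chosen by name: Rbp4, Rdh10, Dhrs3, Aldh1a1, Aldh1a2, Aldh1a3, Cyp26b1, Crabp1 and Crabp2, out of 16535 genes with a named probe on the array. Earlier results of these data were known when these genes and the gene lists below were chosen. They had 11 probes of 41174, with 2 each for Rdh10 and Dhrs3. A gene was tested where both arrays of some group read it well above background, which held for 14243 genes in all and for 8 of the 9. The exception was Crabp2.

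The cells were primary Sertoli cells of C57BL/6J mice, the somatic cells that surround the germ cells in the seminiferous tubule. The labels give no age and no genetic change. All groups were cultured at 34 °C with insulin (10 µg/ml), transferrin (5 µg/ml) and epidermal growth factor (EGF, 5 ng/ml), and treatment ran for 24 h from day 5. EGF activates ERK signalling, so the vehicle cultures carried that stimulus too. The 3 groups were vehicle, basic fibroblast growth factor (bFGF, stated as 20 ng without a volume) and PD0325901 at 10 µM, which blocks MEK1 and MEK2, the kinases directly upstream of ERK. Each group had 2 samples, each on its own 1-colour array. The labels do not say whether the 2 samples came from separate cultures, so the spread behind the p-values is that of these samples and may be technical only.

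Retinol reaches cells bound to the serum protein RBP4, and the receptor STRA6 takes it up. Retinol dehydrogenases such as RDH10 oxidise it to retinaldehyde, DHRS3 reduces retinaldehyde back to retinol, and the ALDH1A enzymes oxidise retinaldehyde irreversibly to retinoic acid. CYP26 enzymes break retinoic acid down, the CRABP proteins bind it in the cytoplasm, and RAR and RXR receptors in the nucleus respond to it. In the testis retinoic acid drives the differentiation of spermatogonia and their entry into meiosis, and CYP26B1 keeps it away from germ cells in the fetal testis.

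A level below is the log2 of the processed signal minus the array's 75th percentile on that scale, so 0 is the 75th percentile, and a difference is between the means of 2 groups on the same scale. Levels of different probes are not compared with each other. Where groups are said not to overlap, this describes the arrays only, and the share of all genes with such groups was not counted. With 2 arrays a group it occurred without a passed test, for Rbp4 and Aldh1a2 in bFGF against vehicle. It also occurred for Crabp2, near the background, in both treatments against vehicle. That percentile was a signal of 1464 to 1613, depending on the array. No slide carried arrays of more than 1 group, and slide and treatment therefore cannot be told apart. On the bFGF arrays 75.6% and 75.9% of probes were well above background, against 64.9% to 66.6% on the others. All 12 listed Sertoli markers were detected, with vehicle means of 3.59 for Sox9 and 4.82 for Cldn11. All 10 listed genes that report ERK output were lower with PD0325901, by -6.07 to -0.37, where 29.2% of all genes were called lower. With bFGF 1 of them rose and 3 fell, where 12.6% and 7.28% of all genes did. These bFGF calls, like every bFGF call against vehicle, did not hold without bFGF replicate 2.

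After PD0325901, Aldh1a3 fell 12.9-fold and Cyp26b1 fell 3.92-fold, while Rbp4, Rdh10, Dhrs3 and Aldh1a2 rose by 1.46-fold to 2.64-fold. Thus 6 of 8 tested members passed the test (limma, Benjamini-Hochberg adjusted p under 0.05), 4 higher and 2 lower. The background over all genes was 53.3% called, with 24.1% higher and 29.2% lower. The median difference of the 8 members was 0.26 against -0.05 over all tested genes, and the median size of the difference regardless of sign was 1.25 against 0.30. Because the members were chosen with earlier results of these data known, their counts and medians beside all genes are descriptions only, in every comparison. All 6 calls kept their direction and passed in each of the 17 other settings and left-out arrays that were run. Aldh1a1 and Crabp1 did not pass.

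With bFGF 3 of 8 members passed against vehicle, Rdh10, Dhrs3 and Cyp26b1, all higher, where 19.9% of all genes passed, 12.6% higher and 7.28% lower. The members' median was 0.26 against 0.03 over all genes. These calls rested on every bFGF array: without bFGF replicate 1 or without bFGF replicate 2, 0 of 8 members passed in limma and 4 had an unadjusted p under 0.05. Without either PD0325901 array, which changes only the pooled spread, Dhrs3 passed alone. Without either vehicle array 2 passed, and Cyp26b1 was lost. Between bFGF and PD0325901, 6 of 8 passed, 2 higher and 4 lower in bFGF, where 62.0% of all genes passed, 36.5% higher and 25.4% lower. The 3 comparisons share their arrays in pairs, so they are not independent of one another.

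**Figure D1:**
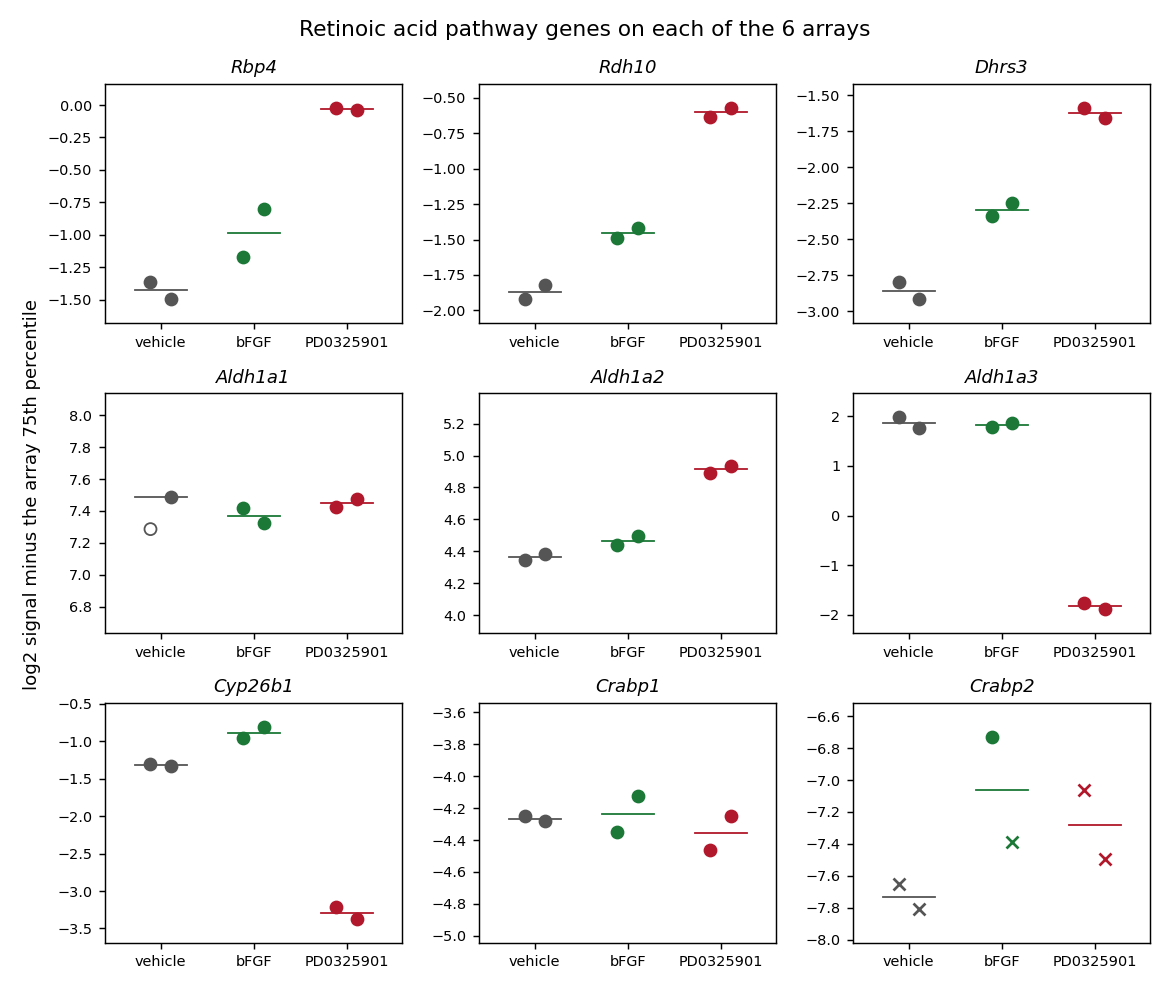
Level of each gene (log2 processed signal minus the array's 75th percentile) on the 6 arrays, with 1 point per array, a bar at the group mean, crosses where the probe was not well above background, and an open circle for the outlier-marked Aldh1a1 spot, which is left out of its mean. Rdh10 and Dhrs3 are shown by their brighter probe. The PD0325901 arrays lie apart from the others for Rbp4, Rdh10, Dhrs3, Aldh1a2, Aldh1a3 and Cyp26b1, and each panel has its own vertical scale.

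**Figure D2:**
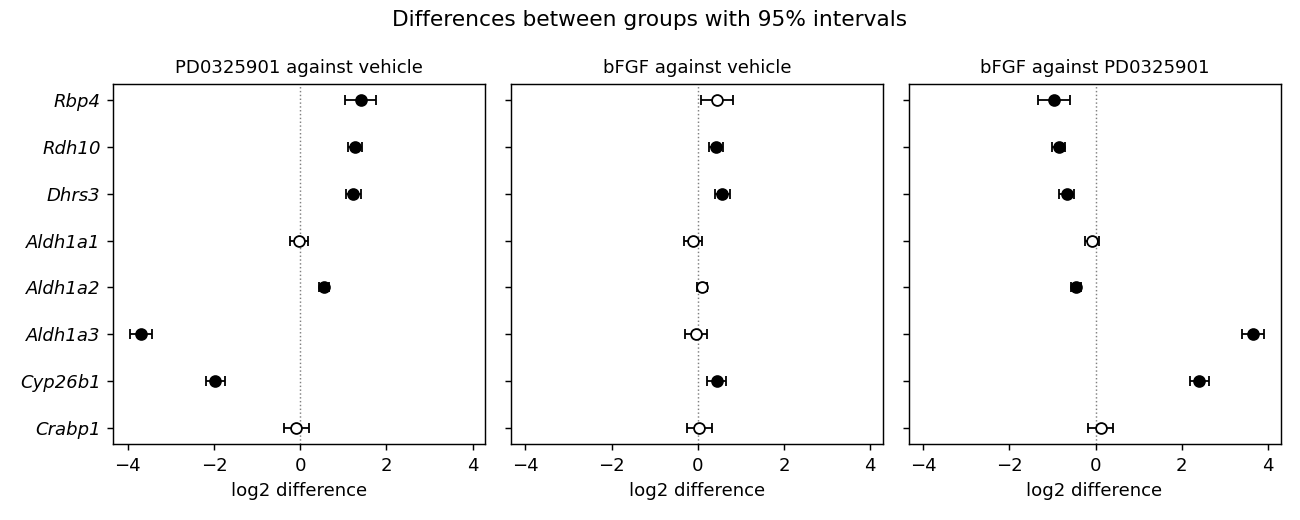
Difference between group means (log2, horizontal axis) for the 8 tested genes in the 3 comparisons, with 95% intervals; filled points passed the test. In PD0325901 against vehicle Aldh1a3 and Cyp26b1 lie to the left of 0 and Rbp4, Rdh10, Dhrs3 and Aldh1a2 to the right.

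Rbp4, the carrier of retinol in the blood, was read by 1 probe. Its levels were -1.36 and -1.50 on the vehicle arrays, -1.17 and -0.80 on the bFGF arrays, and with PD0325901 they were -0.019 and -0.037. The groups did not overlap, and the bFGF arrays lay between the others. The difference of PD0325901 from vehicle was 1.40 ± 0.14 (SE, 2 arrays a group; adjusted p = 0.00187), or 2.64-fold with a 95% interval of 2.05 to 3.41. The difference of bFGF from vehicle was 0.44 ± 0.14 and did not pass (adjusted p = 0.0889, interval 0.08 to 0.81). bFGF was lower than PD0325901 by -0.96 ± 0.14 (adjusted p = 0.00468).

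The upstream sequences of Rbp4 are shown because it had the largest rise of the members with PD0325901 and because 1 of its starts holds a match to the AP-1 site TGANTCA. AP-1 is the Fos and Jun complex, whose genes ERK signalling induces. The RefSeq promoter table (build GRCm38.p6) held 10 starts for 6 of the 9 members and none for Aldh1a3, Rdh10 and Crabp2. For Rbp4 it gave 2 starts on the minus strand of chromosome 19. The first line is the 250 bases before the upstream start, chr19:38125322-38125571, and the next is 30 bases around the match before the other start, chr19:38124935-38124964, with the match in capitals.
Rbp4 upstream: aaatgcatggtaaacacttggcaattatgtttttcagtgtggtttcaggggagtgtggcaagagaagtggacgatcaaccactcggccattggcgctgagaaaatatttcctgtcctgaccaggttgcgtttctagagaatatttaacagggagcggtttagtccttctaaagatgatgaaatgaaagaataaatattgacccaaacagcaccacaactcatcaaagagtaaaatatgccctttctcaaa
Rbp4 window: gcgttcaggagTGAGTCAgggagcgttatg

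The match runs from -142 to -136 relative to the start. Windows of 300 bases were searched on both strands, and 7.81% of the 32851 promoters in the table held TGANTCA. The members had 2 such promoters of 10, the other being the first start of Aldh1a1. None of the 10 held the hexamers AGGTCA or AGTTCA that retinoic acid receptors bind, which 16.3% and 13.99% of all promoters held, nor a direct repeat of them spaced by 5 or by 2 bases (0.0396% of all promoters for each spacing). None held the ETS core CCGGAA, found in 14.9%. A match of letters is a description and says nothing of binding.

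Rdh10, the retinol dehydrogenase that supplies most retinaldehyde in the embryo, rose with both treatments. On the brighter of its 2 probes the levels were -1.92 and -1.82 with vehicle, -1.49 and -1.42 with bFGF, and -0.63 and -0.57 with PD0325901. The groups did not overlap and the order was vehicle, bFGF, PD0325901. PD0325901 exceeded vehicle by 1.27 ± 0.06 (adjusted p = 2.80e-04, 2.42-fold), and bFGF exceeded vehicle by 0.42 ± 0.06 (adjusted p = 0.0194). bFGF was lower than PD0325901 by -0.85 ± 0.06 (adjusted p = 5.91e-04).

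The other Rdh10 probe read -2.01 and -2.31 with vehicle, -1.91 and -1.78 with bFGF, and -1.16 and -1.08 with PD0325901. It was tested in a fit over all 30571 detected probes, of which 45.6% passed for PD0325901 against vehicle, 14.4% for bFGF against vehicle and 55.5% for bFGF against PD0325901. Its groups stood in the same order. The rise with PD0325901 was 1.04 ± 0.12 (adjusted p = 0.00383), and the bFGF difference of 0.31 ± 0.12 did not pass (adjusted p = 0.140).

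Dhrs3 encodes the reductase that returns retinaldehyde to retinol, and its protein and RDH10 are known to bind and activate each other. Its brighter probe read -2.80 and -2.92 with vehicle, -2.34 and -2.25 with bFGF, and -1.59 and -1.66 with PD0325901. Again the 3 groups were separate, with bFGF in the middle. The rise over vehicle was 1.24 ± 0.07 with PD0325901 (adjusted p = 3.92e-04, 2.36-fold) and 0.56 ± 0.07 with bFGF (adjusted p = 0.0147).

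The 2 probes of Dhrs3 disagreed on bFGF against PD0325901. The dimmer one read -3.88 and -3.61 with vehicle, -3.01 and -2.86 with bFGF, and -2.98 and -2.85 with PD0325901. On it both treatments lay above vehicle and overlapped each other. It gave 0.83 ± 0.12 for PD0325901 over vehicle (adjusted p = 0.00728) and 0.81 ± 0.12 for bFGF over vehicle (adjusted p = 0.0272). Between bFGF and PD0325901 it gave -0.02 ± 0.12 (adjusted p = 0.911), where the brighter probe gave -0.67 ± 0.07 (adjusted p = 0.00152). So whether Dhrs3 was lower with bFGF than with PD0325901 depended on the probe.

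The 3 genes for retinaldehyde dehydrogenases, which make retinoic acid, differed in what they did after PD0325901: Aldh1a3 fell, Aldh1a2 rose, and Aldh1a1 did not pass the test. Aldh1a3 read 1.98 and 1.76 with vehicle, 1.79 and 1.86 with bFGF, and -1.77 and -1.88 with PD0325901. Before scaling these were signals of 6003 and 5455, of 5274 and 5309, and of 444 and 401. The vehicle and bFGF arrays overlapped, and both PD0325901 arrays lay far below them. The fall with PD0325901 was -3.69 ± 0.09 (adjusted p = 9.17e-05), or 12.9-fold with a 95% interval of 10.9 to 15.4. It was the 32nd largest fall among the 14243 genes tested.

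bFGF and vehicle differed in Aldh1a3 by -0.044 ± 0.093 (adjusted p = 0.748), with an interval of -0.29 to 0.20. bFGF exceeded PD0325901 by 3.65 ± 0.09 (adjusted p = 8.89e-05). In its 6 values, centred on the vehicle mean, Aldh1a3 was closest to Plk3, with a root mean square difference of 0.0590, and to Ptgr1, with 0.0822. Plk3 encodes a polo-like kinase and Ptgr1 a prostaglandin reductase.

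Aldh1a2, whose enzyme makes most of the retinoic acid of the early embryo, read 4.34 and 4.38 with vehicle, 4.44 and 4.50 with bFGF, and 4.89 and 4.93 with PD0325901. The arrays of each group lay within 0.06 of each other and the groups did not overlap. PD0325901 exceeded vehicle by 0.55 ± 0.04 (adjusted p = 0.00107), which is 1.46-fold with an interval of 1.35 to 1.59. The bFGF difference from vehicle, 0.11 ± 0.04, did not pass (adjusted p = 0.158, interval -0.01 to 0.22), and bFGF was lower than PD0325901 by -0.45 ± 0.04 (adjusted p = 0.00159).

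In the adult testis Aldh1a2 is known mainly from germ cells. Of 10 tested germ cell markers, 3 rose and 2 fell with PD0325901, where 24.1% and 29.2% of all genes did. With bFGF 5 of these markers rose, where 12.6% of all genes did, and these calls did not hold without bFGF replicate 2. Their summed signal, relative to the vehicle mean, was 0.931 to 1.07 on the vehicle arrays, 1.18 to 1.20 on the PD0325901 arrays and 1.41 to 1.74 on the bFGF arrays. Not all of these markers were bright, and Acrv1 was well above background on the bFGF arrays only. The bFGF arrays also had the larger share of probes well above background. The part of germ cells in the Aldh1a2 result was not tested. In such bulk samples fewer cells of a type and less RNA per cell cannot be told apart.

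The 250 bases before the Aldh1a2 start, chr9:71215539-71215788 on the plus strand of GRCm38.p6, are 77.6% G and C. For Rbp4 the 250 bases before the upstream start, printed above, are 40.8% and those before its other start 70.8%. The Aldh1a2 sequence held none of the motifs searched.
Aldh1a2 upstream: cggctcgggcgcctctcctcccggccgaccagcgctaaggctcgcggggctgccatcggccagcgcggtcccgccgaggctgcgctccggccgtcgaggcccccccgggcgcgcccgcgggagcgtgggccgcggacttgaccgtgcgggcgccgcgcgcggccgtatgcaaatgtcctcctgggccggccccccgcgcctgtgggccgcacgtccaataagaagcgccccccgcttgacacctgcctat

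Aldh1a1, the retinaldehyde dehydrogenase gene best known from adult Sertoli cells, read 7.49 on vehicle replicate 2, 7.42 and 7.32 with bFGF, and 7.42 and 7.47 with PD0325901. The scanner marked the spot of vehicle replicate 1 as an outlier, so that array was left out of the fit for this gene; its level was 7.29. With it kept, the vehicle arrays span the other 4. PD0325901 differed from vehicle by -0.036 ± 0.070 (adjusted p = 0.699, interval -0.24 to 0.17, 1 vehicle array) and bFGF by -0.11 ± 0.070 (adjusted p = 0.312, interval -0.32 to 0.093). The lower end of that bFGF interval is a level 1.25-fold below vehicle. Aldh1a7, a close copy of Aldh1a1 with a probe of its own, rose by 0.21 ± 0.04 with PD0325901 (adjusted p = 0.0151) and fell with bFGF, by -0.27 ± 0.04 (adjusted p = 0.0246). Transcripts of close copies can bind each other's probes, and whether they did here was not tested.

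The window below is the other AP-1 match among the members, in the first of the 2 starts of Aldh1a1, from -57 to -51 (chr19:20492515-20492544, plus strand, GRCm38.p6). It is shown because it holds the same 7-letter motif as the Rbp4 window. Whether the motif had a part in the result of either gene was not tested.
Aldh1a1 window: gaaatgtcatcTGACTCAgtggggaaactg

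Cyp26b1, the enzyme gene for the breakdown of retinoic acid, fell with PD0325901 and rose with bFGF. It read -1.31 and -1.33 with vehicle, -0.96 and -0.81 with bFGF, and -3.21 and -3.37 with PD0325901. The 3 groups did not overlap, and the PD0325901 arrays lay well below the others. The fall was -1.97 ± 0.08 (adjusted p = 2.29e-04), or 3.92-fold with a 95% interval of 3.36 to 4.56, and the 281st largest of 14243. Over the 17 other settings and left-out arrays it lay between -2.05 and -1.50.

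The rise of Cyp26b1 with bFGF was 0.44 ± 0.08 (adjusted p = 0.0330), or 1.35-fold, and was not called in 8 of 17 other settings, where the adjusted p over all of them ran from 0.00847 to 0.136. bFGF exceeded PD0325901 by 2.41 ± 0.08 (adjusted p = 1.41e-04, 5.30-fold). The gene closest to Cyp26b1 over the 6 arrays was Plekhs1, at a root mean square difference of 0.0762. The promoter table has 1 start for Cyp26b1. Of the bases before it, the 152 from -250 to -99 are printed, chr6:84593909-84594060 on the minus strand of GRCm38.p6; the bases nearer that start lie within the gene's RefSeq limits and are left out. They are shown because this gene moved opposite ways with the 2 treatments. The whole window searched holds none of the motifs.
Cyp26b1 upstream: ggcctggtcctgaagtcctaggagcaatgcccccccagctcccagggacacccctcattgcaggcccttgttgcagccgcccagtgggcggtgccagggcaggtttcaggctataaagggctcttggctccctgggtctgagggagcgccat

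**Figure D3:**
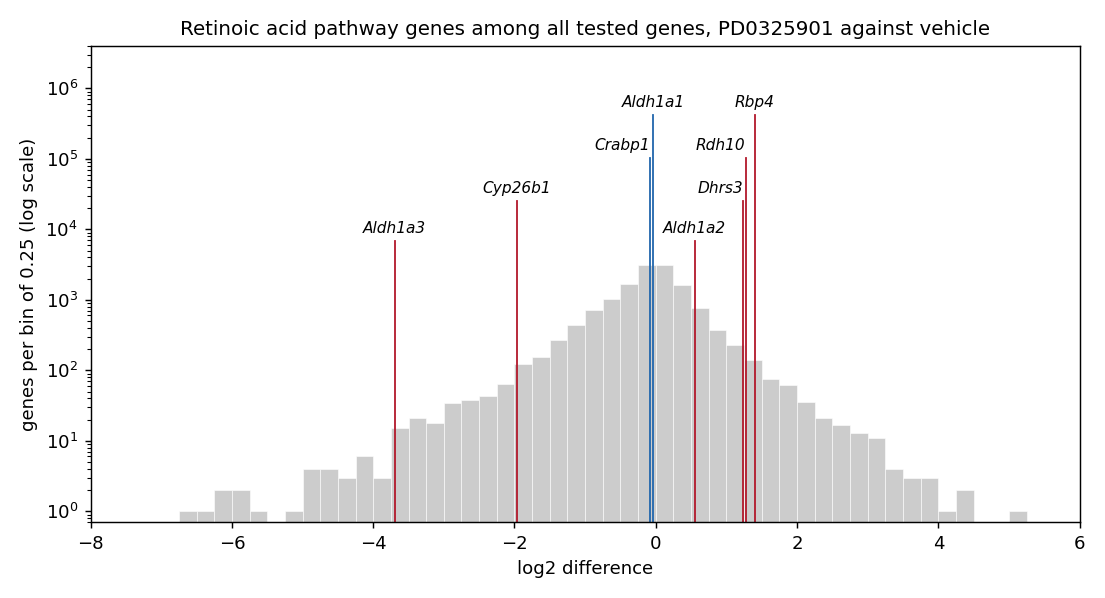
Number of genes (vertical axis, log scale) per bin of 0.25 of the log2 difference between PD0325901 and vehicle for all 14243 tested genes, with lines at the 8 members; red lines passed the test and blue lines did not. Aldh1a3, at -3.69, stands in the thin left tail, and Aldh1a1 and Crabp1 lie near 0.

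The CRABP proteins bind retinoic acid inside the cell, CRABP1 being linked to its breakdown and CRABP2 to its delivery to receptors. Crabp1 read -4.25 and -4.28 with vehicle, -4.35 and -4.13 with bFGF, and -4.46 and -4.25 with PD0325901. All 3 groups overlapped. PD0325901 differed from vehicle by -0.089 ± 0.11 (adjusted p = 0.525, interval -0.38 to 0.20) and bFGF by 0.031 ± 0.11 (adjusted p = 0.851, interval -0.26 to 0.32). Crabp2 was well above background on bFGF replicate 1 alone of the 6 arrays. Its readings of -7.65 and -7.81 with vehicle, -6.73 and -7.39 with bFGF, and -7.06 and -7.50 with PD0325901 lie near the background, and no fold is given.

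For the other members that passed, the genes closest over the 6 arrays were named in the same way. Rbp4 was nearest to Tmem178 (root mean square difference 0.0737) and B3gnt4 (0.0757). Rdh10 was nearest to Stom (0.0318) and Tox (0.0644), and Dhrs3 to Ago4 (0.0480) and Fgl2 (0.0571). Aldh1a2 was nearest to Ttyh1 (0.0254) and Lhpp (0.0290). These are descriptions of 6 arrays, with no test.

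Of 47 other genes of the retinoid pathway, 34 were tested. With PD0325901 11 rose and 10 fell, against 24.1% and 29.2% of all genes, with a median difference of -0.25. With bFGF 4 rose and 3 fell, where 12.6% and 7.28% of all genes did, with a median of -0.01. Without bFGF replicate 1 or without bFGF replicate 2, 0 of the 34 passed against vehicle in limma, and 10 and 7 had an unadjusted p under 0.05, so the bFGF calls of single pathway genes below rest on both arrays. Among 19 genes of retinol supply and oxidation 4 rose and 6 fell with PD0325901, and with bFGF 1 rose and 1 fell. Among the 6 nuclear receptors 2 rose and 1 fell with PD0325901, and all 6 cofactors passed, 4 higher and 2 lower.

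In retinol supply, Stra6, the receptor for RBP4, rose with PD0325901 by 0.91 ± 0.05 (adjusted p = 4.68e-04) and fell with bFGF, by -0.26 ± 0.05 (adjusted p = 0.0387). So the gene of the carrier and the gene of its receptor both rose with PD0325901. Stra6l, another RBP4 receptor gene, rose with bFGF by 1.12 ± 0.15 (adjusted p = 0.0185), and its PD0325901 difference was -0.19 ± 0.15 (adjusted p = 0.338).

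Among retinol-oxidising enzymes Adh7 fell with PD0325901 by -2.001 ± 0.20 (adjusted p = 0.00188). Only 1 of the 2 PD0325901 arrays read it well above background, so the size of this fall rests in part on a reading near the background. Rdh5 fell by -0.82 ± 0.06 (adjusted p = 7.73e-04). Retsat, which saturates retinol, rose by 0.72 ± 0.07 (adjusted p = 0.00187). With bFGF none of these 3 passed in limma, with adjusted p values of 0.315, 0.0635 and 0.554.

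Of the other genes of retinoic acid formation and breakdown, Aldh1a7 is described above, with a vehicle mean of 2.29. Aldh8a1 had a low vehicle mean of -4.67, though both arrays of each group read it well above background. Cyp26a1 was dim. Aldh8a1, first described as a retinal dehydrogenase gene, fell with PD0325901 by -0.64 ± 0.19 (adjusted p = 0.0454) and rose with bFGF by 0.95 ± 0.19 (adjusted p = 0.0369). Cyp26a1, like Cyp26b1 a gene for retinoic acid breakdown, was well above background on both bFGF arrays and on no other array. It was at least 1.66-fold higher with bFGF than with vehicle (adjusted p = 0.0450) and at least 1.88-fold higher than with PD0325901 (adjusted p = 0.00354). Such a bound sets the bright mean against the lowest signal well above background on each dim array, or the gene's own where higher. The bFGF arrays also had the larger share of probes well above background, and the part of this in the bFGF results for dim genes was not tested.

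Of the receptors, Rarb, itself a known target of retinoic acid, rose with PD0325901 by 1.22 ± 0.07 (adjusted p = 3.95e-04) and Rara fell by -0.90 ± 0.05 (adjusted p = 5.25e-04). The coactivator gene Ncoa1 rose by 0.78 ± 0.05 (adjusted p = 6.45e-04). With bFGF these 3 had differences of 0.044, 0.090 and -0.15, and none passed (limma adjusted p from 0.114 to 0.649).

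**Figure D4:**
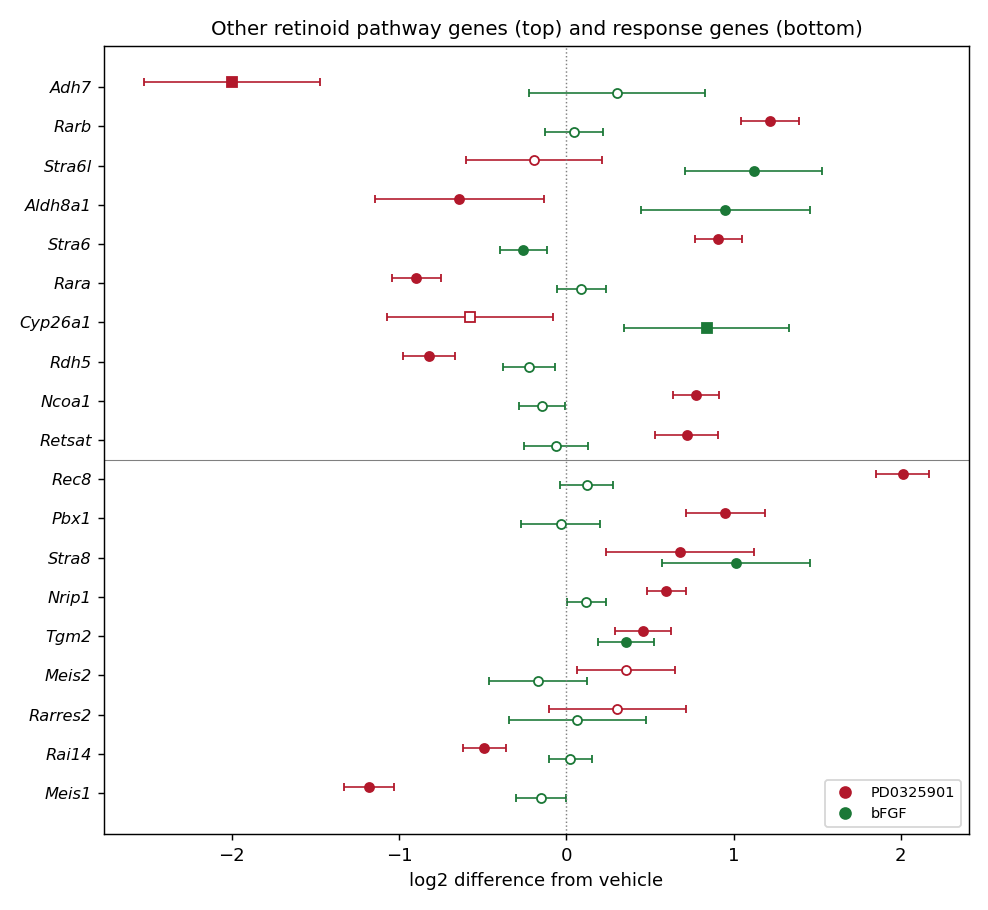
Log2 difference from vehicle with 95% interval for PD0325901 (red) and bFGF (green); filled symbols passed the test, and squares mark genes not well above background on both arrays of both groups. The upper part shows 10 other pathway genes and the lower part genes known to respond to retinoic acid; Adh7 lies far to the left and Rec8 far to the right with PD0325901.

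Of 18 genes known to respond to retinoic acid in other settings, 13 were tested. With PD0325901 8 rose and 2 fell, where 24.1% and 29.2% of all genes did, with a median difference of 0.60 against -0.05 over all genes. With bFGF 3 rose and 1 fell, where 12.6% and 7.28% of all genes did, with a median of 0.044. Of the tested genes Rarb, Stra6, Nrip1 and Cyp26a1 also stand in the pathway list above, and the list is not a measure of retinoic acid, which was not assayed here. This list too was chosen with earlier results of these data known, so its counts and medians beside all genes are descriptions only.

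Rec8, a meiotic cohesin gene, rose most in this list, by 2.01 ± 0.06 with PD0325901 (adjusted p = 1.15e-04), and differed by 0.12 ± 0.06 with bFGF (adjusted p = 0.205). Stra8, the gatekeeper of meiosis in germ cells, rose with both, by 0.68 ± 0.17 (adjusted p = 0.0261) and 1.02 ± 0.17 (adjusted p = 0.0249). The bFGF calls of Stra8 and of this list did not hold without bFGF replicate 2. Meis1 fell by -1.18 ± 0.06 (adjusted p = 2.99e-04). Rec8 and Stra8 are also genes of germ cells, whose marker sums are given above. Stra8 is itself among the markers in those sums, and Rec8 is not.

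Markers of testis cell types were also counted with PD0325901, where 24.1% of all genes rose and 29.2% fell. Of 6 peritubular myoid markers 5 rose, and their summed signal relative to the vehicle mean was 1.46 to 1.47, while of 6 fibroblast markers 4 rose, with a sum of 1.63 to 1.65. All 5 endothelial markers fell, with a sum of 0.381 to 0.428, and 3 of 6 macrophage markers fell, with a sum of 0.660 to 0.682. Of 12 Sertoli markers 5 rose and 5 fell, and their sum was 0.912 to 0.971. Of 4 Leydig markers 2 fell (0.831 to 0.839), and of 4 rete and epithelial markers 1 rose (1.18 to 1.30).

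With bFGF the sums were 0.920 to 0.935 for Sertoli, 1.01 to 1.12 for myoid, 0.970 to 1.11 for fibroblast, 1.05 to 1.10 for endothelial and 0.694 to 0.747 for macrophage markers. They were 1.01 to 1.13 for Leydig markers and, with the arrays further apart, 0.761 to 1.17 for rete and epithelial markers. The vehicle arrays lay within 0.899 and 1.10 for every list. No marker was listed at 0, and Lhcgr, Tek and Pax8 were not well above background. The part of these markers in the retinoid results was not tested.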

How the data were processed

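Per the labels, total RNA (0.4 µg) was labelled with Cy3 and hybridised to 1-colour arrays. The scanner files that the authors deposited hold spot intensity on a linear scale from Agilent Feature Extraction 9.5.3.1, per the file headers (the submitters' processing notes give 9.5). Feature Extraction had subtracted background from the processed intensity and had not normalized it between arrays. A deposited table holds log2 values centred per probe, whose arrays matched the scaled scanner signal within 0.001 up to 1 constant per array for 100% of unflagged probes. Its direction is that of the signal, only a constant common to a probe stays unknown, and it served as an alternative. The medians of its columns were 0.0196 and 0.0182 (vehicle), 0.00499 and 0.00420 (bFGF), and -0.107 and -0.0122 (PD0325901).

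Processed signals of 43379 non-control spots were put on the log2 scale, and the 75th percentile of its array was subtracted from each. A spot with an outlier flag counted as missing on its array, which touched 83 of 41174 probes. No spot was saturated. Of the probes, 23374 (56.8%) were named through their RefSeq accession and a table of assembly GRCm38.p6, and 17800 were not. The files' own coordinates are of an older build and are not given. Each gene was read by its brightest detected probe. A single limma model (limma 3.58.1, R 4.3.3) took in all 6 arrays (3 residual degrees of freedom, 2 for Aldh1a1), p-values were adjusted by Benjamini-Hochberg over the 14243 genes, and an adjusted p under 0.05 was called. The method was tested on simulated data with independent noise, no slide effect and fewer changed genes than were called here with PD0325901. That simulation therefore does not vouch for the calls made on these arrays. The number of arrays limits the precision. The 2 arrays of a group correlated at 0.994 (vehicle), 0.997 (bFGF) and 0.997 (PD0325901).

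The members and lists were chosen with earlier results of these data known. All members were named, and of the other pathway genes the 12 with the largest difference among those that passed with a size of at least 0.58 against vehicle (15 met this). Aldh1a7 and the genes of the response list were named in addition, some after their values were seen. Genes of closest pattern were the 2 with the smallest root mean square difference. Some genes that these rules or lists name are not reported here. Alternatives were normexp background correction with an offset of 50 (on the median spot signal, since the files hold no mean signal column), quantile normalization, the deposited table, other filters and probe rules, an intensity trend, only the arrays compared, a replicate block and each array left out.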

Additional observations from a re-analysis of the deposited data

How the results depend on the processing

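With PD0325901 against vehicle and bFGF against PD0325901, all 6 member calls of each kept their direction and passed in 17 of 17 settings. Against vehicle the bFGF calls were less stable. The count of all genes passing, 2834, was 1139 with only the 4 arrays compared, and ran from 0 to 1881 as each array was left out; without bFGF replicate 2 it was 0 in limma, with 3720 at an unadjusted p under 0.05, and without bFGF replicate 1 it was 544. The 3 members passing became 1 with only those 4 arrays and 0 to 2 with an array left out. The 7 other pathway genes passing became 4 after quantile normalization, 2 with only those 4 arrays and 0 to 2 with an array left out. The replicate numbers showed no clear pairing of the samples (correlations of deviations -0.0759, 0.120 and -0.117). With 2 arrays a group, such weak correlations do not settle whether the samples were paired. With the replicate number as a block, 1402 genes and 3 other pathway genes passed in bFGF against vehicle, and Cyp26b1 did not (adjusted p = 0.0723). Rbp4 passed there only with an intensity trend (adjusted p = 0.0321).

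The differences that changed sign were all of genes that did not pass, and the cause was not tested. After quantile normalization Aldh1a1 was 0.074 with PD0325901 and 0.044 with bFGF, and Crabp1 was 0.082 with PD0325901, -0.17 with bFGF and -0.25 for bFGF against PD0325901. Aldh1a1 was 0.063 with PD0325901 with outlier-marked spots kept, a setting chosen after seeing the data, and 0.071 for bFGF against PD0325901 after normexp. With an array left out, Aldh1a3 with bFGF ran from -0.15 to 0.066 (without vehicle replicate 1), Crabp1 with PD0325901 from -0.19 to 0.015 (without PD0325901 replicate 1), and Crabp1 with bFGF from -0.079 (without bFGF replicate 2) to 0.14. Aldh1a1 has no value without vehicle replicate 2. The slide as a block could not be fitted, since each slide holds 1 group. Dim genes such as Crabp2 and Cyp26a1 are limited by their signal over background.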

Other observations

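Further enzymes of the retinol pathway moved with PD0325901, named here after their values were seen. Adh1, an alcohol dehydrogenase gene that also acts on retinol, fell by -0.58 ± 0.08 (limma adjusted p = 0.00475). Rdh9 fell by -0.72 ± 0.14 (adjusted p = 0.0129) and Rdh13 by -0.58 ± 0.05 (adjusted p = 0.00167). Among receptors Rxrb rose by 0.58 ± 0.05 (adjusted p = 0.00153). With bFGF Rxra fell by -0.23 ± 0.05 (adjusted p = 0.0487), and of the cofactors Ncoa2 rose by 0.31 ± 0.05 (adjusted p = 0.0287) and fell with PD0325901, by -0.35 ± 0.05 (adjusted p = 0.00673). Between bFGF and PD0325901, 13 of 34 other pathway genes were higher and 12 lower with bFGF, where 36.5% and 25.4% of all genes were.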
